A study of Rattus norvegicus with 36 samples.

Results

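The comparison described here set ovarian granulosa cells given HPTE at 10 µM together with FSH against cells given HPTE at 5 µM together with FSH, the step of dose that comes after most of the response to FSH had been lost. Its members are 6 of the 36 arrays of the series, 3 per group, chosen by their titles and matched by the number that ends each title. HPTE, the compound tested, forms in the body from the pesticide methoxychlor and is known as a ligand of the estrogen receptors. All groups used here were cultures of granulosa cells, the hormone-producing cells that surround the oocyte, from immature Sprague Dawley rats aged 21 to 27 days, without a genetic change. The cells were plated for 24 h with 5% serum and then treated for 48 h in serum-free medium that held androstenedione, the substrate of aromatase, in every group. Its concentration is 0.1 µM in the design text and 0.1 M in the sample descriptions. The groups of the comparison had HPTE at 10 or 5 µM with FSH at 3 ng/ml. The same step of dose was read in cells with HPTE at 10 or 5 µM and either no stimulus or cAMP at 1 mM. The lower doses, 0 and 1 µM with FSH, without stimulus and with cAMP, served as background. Each group had 3 arrays. The labels do not say that the 3 cultures of a group came from separate animals, so the spread on which the p-values rest may be technical.

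FSH acts on granulosa cells through a receptor that raises cAMP and protein kinase A activity, and it turns on the genes of estrogen and progesterone synthesis. The integrated stress response is a separate programme, in which kinases that sense amino acid shortage, unfolded protein or other stress slow translation in general while translation of the factor ATF4 rises. ATF4 and its partners then turn on genes for amino acid uptake, amino acid synthesis and tRNA charging, and, when the stress lasts, the factor Ddit3 (CHOP) and the pseudokinase Trib3. Genes of DNA replication and mitosis are shared by all dividing cells, and many of them hold CCAAT boxes and a cell cycle homology region near their start.

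The deposited values were linear intensities, used here as log2. Expression was read from 31042 probe sets, of which 20826 carried exactly 1 gene symbol, and the probe set with the highest mean stood for each of 14217 genes. The 6 arrays had median intensities of 66.7 to 69.5 at 10 µM and 65.8 to 68.2 at 5 µM. Within a group the arrays correlated at 0.976 to 0.992 at 10 µM and at 0.965 to 0.983 at 5 µM. Only array 1 at 10 µM was most like an array of its own group. Arrays 2 and 3 of both doses were most like the array without stimulus of the same dose and number. Array 1 at 5 µM was most like an array of another dose, number 2 at 1 µM with FSH (r = 0.991). The lowest correlation, 0.965, was between arrays 1 and 3 at 5 µM. Array 3 of each group differed from the others in the log2 ratio of the 3' over the 5' Gapdh control. The ratios were 1.95, 1.68 and 0.85 at 10 µM and 2.07, 1.95 and 0.80 at 5 µM. The cause of this shift was not tested. Outside the 6 arrays, those labelled number 2 at 0 µM with FSH and with cAMP went against their labels. Cyp19a1, the aromatase gene, stood there at a log2 intensity of 7.48 with FSH and 11.01 with cAMP, while the other 0 µM arrays had 11.49 and 11.46 with FSH and 7.62 and 6.46 with cAMP. Those arrays bear on the 10 against 5 µM differences only through the shared estimate of spread. The FSH one also enters the choice of genes raised or lowered by FSH and every 5 against 0 µM value below. In their mean over the 6 arrays, all 8 measured granulosa markers lay above the median probe set, which had a log2 intensity of 6.08. Cyp19a1, 1 of these markers, lay below it in arrays 2 and 3 at 10 µM and in array 2 at 5 µM. The gene of the FSH receptor was not analysed here.

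The response to FSH was small at both doses in the median, though not in every gene. Genes raised by FSH were taken from the 0 µM arrays, as the 363 genes called at least 2-fold higher with FSH than without stimulus. In numbers 1, 2 and 3 their median log2 difference, FSH minus no stimulus, was 1.63, 1.13 and 1.67 at 0 µM, 1.44, 0.56 and 1.33 at 1 µM, 0.32, 0.15 and 0.35 at 5 µM, and 0.25, 0.05 and 0.11 at 10 µM. The 0 µM values are fixed by the choice of genes and are no measured contrast. In each number the value at 10 µM lay below that at 5 µM, by far less than the gap between 1 and 5 µM. Taken gene by gene, the 10 minus 5 µM difference had a median of -0.11 over the 363 genes. Of them 251 (69.1%) were below 0, but none passed the test, whose limits for these genes are given below. The 5 minus 0 µM difference of the same genes had a median of -1.19, with 316 called lower, which is given as a description, since the genes were chosen for high values in the 0 µM arrays with FSH. The 506 genes lowered by FSH at 0 µM had a median difference between 10 and 5 µM of -0.01. The test called 5 probe sets for FSH against no stimulus at 5 µM and 1 at 10 µM. Those at 5 µM that stood for named genes were all higher with FSH on the log2 scale (limma). Cyp11a1 was higher by 3.25 (adjusted p = 0.00311), Crabp2 by 2.66 (adjusted p = 0.0248), Hsd3b1 by 2.27 (adjusted p = 0.000894) and Inhbb by 1.86 (adjusted p = 0.000862). The call at 10 µM was Inhbb, which encodes an activin and inhibin subunit, at a log2 difference of 2.08 ± 0.25 (adjusted p = 0.000208, limma, n = 3 arrays against 3).

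**Figure D1:**
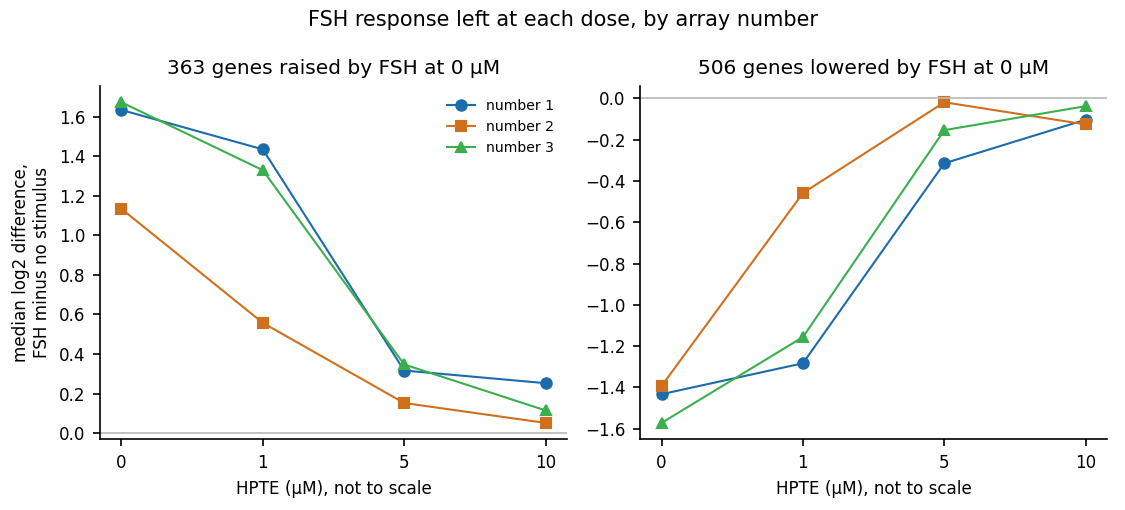
Median log2 difference between arrays with FSH and arrays without stimulus, for 363 genes raised by FSH at 0 µM (left) and 506 genes lowered by it (right), against the dose of HPTE, with 1 line per array number. At 5 and 10 µM the medians of the raised genes lie between 0.05 and 0.35, and at 0 µM, where the genes were chosen for this difference, between 1.13 and 1.67.

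Arrays 1 and 3 at 5 µM held higher levels of 3 well-known FSH target genes than array 2. Cyp19a1 had log2 intensities of 6.50, 4.82 and 4.81 at 10 µM, against 9.03, 5.08 and 8.26 at 5 µM, in the order of array numbers 1, 2 and 3, which is kept below. Cyp11a1, the side-chain cleavage enzyme that starts steroid synthesis, had 8.84, 8.06 and 6.62 at 10 µM, against 11.31, 8.41 and 9.84 at 5 µM. Lhcgr, the LH receptor gene, had 4.96, 5.02 and 5.33 at 10 µM, against 7.48, 5.43 and 8.26 at 5 µM. Within each number the 10 µM array was the lower one for all 3 genes, and number 2 differed least. In number 2, Cyp19a1 and Lhcgr already lay below the median probe set (6.08) at 5 µM, which left little room for a fall. Cyp11a1 lay above it there. The log2 difference was -2.08 ± 0.91 for Cyp19a1 (adjusted p = 0.667), -2.01 ± 0.49 for Cyp11a1 (adjusted p = 0.063) and -1.95 ± 0.95 for Lhcgr (adjusted p = 0.804, limma, n = 3 against 3), so that none passed. Over 17 alternative fits, Cyp19a1 passed in 1, Lhcgr in 2 and Cyp11a1 in 5, and none changed sign. Without number 2 in all groups, where the difference was least, adjusted p was 0.00309 for Cyp19a1 and 0.000746 for Lhcgr, and Cyp11a1 passed too. Without array 2 at 5 µM alone, Cyp11a1 passed with a difference of -2.80 (adjusted p = 0.00235), while Cyp19a1 did not, at -3.19.

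Between 10 and 5 µM with FSH, 150 of 31042 probe sets (0.483%) differed at an adjusted p under 0.05 in limma, with array number as a block. Of these, 101 (0.325%) were higher and 49 (0.158%) lower at 10 µM, and 33 and 8 of them by at least 2-fold. An unadjusted p under 0.05 was reached by 1927. At the level of named genes, 71 of 14217 (0.499%) rose and 31 (0.218%) fell. All 150 probe sets moved the same way in 3 of 3 matched pairs. A test with array number as a block favours such probe sets, and their share of all probe sets is not given here. For 123 of the 150 the arrays of the groups did not overlap, against 2080 (6.7%) of all probe sets. The split between directions depended on the scale, at 97 higher and 90 lower after quantile normalization and at 79 and 57 with each array centred on its median. The count rested on the pairing and on single arrays, and without number 3 in all groups none of the 30 genes named by size kept its call. It was 32 without the replicate block, 33 without array 1 at 5 µM and 2 without number 3 in all groups. Without arrays 2 or 3 at 10 µM it was 51 and 46, and without arrays 2 or 3 at 5 µM it was 96 and 59. Of the 102 genes called, none was among the 363 raised by FSH at 0 µM, 12 were among the 506 lowered, and 90 were in neither set. The spread in this test includes the number 2 arrays at 0 µM that went against their labels. The standard errors given above for the FSH targets Cyp19a1 and Lhcgr far exceed the median of 0.15 over all probe sets. Without those arrays 227 probe sets were called. The lack of calls therefore does not show that the raised genes stayed level. The genes that moved are described below by role. Those of the lowered set named below are Slc7a3, Angptl4, Lpl, Serping1, Lgals3, Grem1, Kcnk6, Fbln5 and Aldh1l2. Of these, Lpl and Fbln5 fell. For none of them was the difference between the steps with FSH and without stimulus called (limma, below), which does not show that the steps were equal. Beyond this, the part of a loss of lowering by FSH in their differences was not tested.

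Regulators of the integrated stress response, Trib3, Ddit3 and Atf5, rose at 10 µM. Of 18 measured members of the ATF4 pathway, 3 rose, none fell and 15 did not pass, while 16 differences were above 0. Their median was 0.38, against 0.03 over all named genes. Of all named genes, 59.1% had a difference above 0, which is the background for the sign counts here and below. Trib3, the pseudokinase that feeds back on ATF4, had 9.00, 9.63 and 10.23 at 10 µM, against 6.94, 8.57 and 8.31 at 5 µM. Every 10 µM array lay above every 5 µM array, and the first 5 µM array was the lowest of the 6. Trib3 rose by 1.68 ± 0.33 on the log2 scale, 3.21-fold (adjusted p = 0.0126), and of its weaker probe sets 1 rose by 1.47 (adjusted p = 0.00209) and the other differed by 0.98 (adjusted p = 0.12). Ddit3 (CHOP), a factor linked to cell death under lasting stress, had 8.28, 8.58 and 9.89 at 10 µM, against 6.58, 7.75 and 8.31 at 5 µM. The lowest 10 µM array fell just under the highest 5 µM array, so the groups overlapped. Its rise within pairs was 1.37 ± 0.28 (adjusted p = 0.0136). Atf5, a factor that ATF4 also controls, had 9.18, 9.98 and 10.46 at 10 µM, against 7.87, 9.06 and 9.04 at 5 µM, without overlap. It rose by 1.22 ± 0.24 (adjusted p = 0.0125).

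Other members of the pathway had smaller differences that did not pass. Chac1, which degrades glutathione, stood at 7.92, 8.30 and 8.29 at 10 µM, against 7.29, 7.68 and 7.10 at 5 µM (log2 difference 0.81 ± 0.23, adjusted p = 0.137). Ppp1r15a (GADD34), which ends the block of translation, differed by 0.68 ± 0.20 (adjusted p = 0.191), and Atf4 itself by 0.38 ± 0.17 (adjusted p = 0.695). Eif2ak4, the kinase that senses uncharged tRNA, differed by -0.02 and Ddit4, an inhibitor of mTOR signalling, by -0.56 ± 0.58 (adjusted p = 0.99). No member of the list passed without array 1 at 5 µM, without array 3 at 10 µM or without the replicate block, and Trib3 and Atf5 did not without array 2 at 10 µM. Without array 1 at 5 µM, the differences were 1.24 for Trib3, 1.09 for Ddit3 and 0.95 for Atf5.

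The promoter of Trib3 is shown because it is the largest rise in the ATF4 pathway and its window holds the core of a response element to which ATF4 binds with C/EBP partners. The window is from RefSeq (GRCr8), chr3:161275484-161275783 on the minus strand, 250 bases before to 50 after the start of the gene. The capitals mark the motif TGATGNAA, here on the opposite strand, from -21 to -14 relative to the start.
Trib3: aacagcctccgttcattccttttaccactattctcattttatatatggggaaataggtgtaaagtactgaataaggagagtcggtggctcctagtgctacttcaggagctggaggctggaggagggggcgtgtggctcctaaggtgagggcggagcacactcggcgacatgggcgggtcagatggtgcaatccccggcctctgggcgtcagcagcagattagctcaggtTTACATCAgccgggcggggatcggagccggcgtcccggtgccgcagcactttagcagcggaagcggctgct
The same motif, searched on both strands, was found in 3.82% of 27457 promoter windows of this length and in 3 of 16 (18.8%) of the ATF4 pathway. It is not in the windows of Ddit3 and Atf5. The motif is not the only 1 with a higher share in this list. The core of the antioxidant response element (Nrf2), TGACNNNGC, was in 7 of 16 (43.8%), against 12.2% of all windows. A match is a run of letters and was not tested as a binding site.

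Of the genes of amino acid supply, the transporters Slc7a3 and Slc6a9 rose. Of 21 measured transporters and synthesis enzymes, 2 rose, none fell and 19 did not pass; 20 differences were above 0, and their median was 0.38. Slc7a3, a transporter of cationic amino acids, had 8.39, 9.54 and 9.91 at 10 µM, against 6.43, 8.30 and 7.86 at 5 µM. All 10 µM arrays were above all 5 µM arrays, although array 1 at 10 µM cleared array 2 at 5 µM by little. Slc7a3 rose by 1.75 ± 0.32 (3.36-fold, adjusted p = 0.0074), with Grb10 the largest rise among the named genes called. Slc6a9, a glycine transporter, had 8.36, 9.06 and 8.74 at 10 µM, against 7.48, 7.90 and 7.75 at 5 µM, without overlap. It rose by 1.01 ± 0.18 (adjusted p = 0.0043). Slc7a11 and Slc3a2, the chains of the cystine transporter, differed by 1.21 ± 0.39 (adjusted p = 0.281) and 0.97 ± 0.24 (adjusted p = 0.063). Asns, asparagine synthetase, differed by 0.70 ± 0.28 (adjusted p = 0.527), and by 0.39 without array 3 at 10 µM. Without array 2 or 3 at 10 µM or array 1 at 5 µM, neither Slc7a3 nor Slc6a9 passed, and Slc7a3 differed by 1.26 without array 1 at 5 µM.

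The aminoacyl-tRNA synthetases, which load amino acids onto tRNA, had small differences of 1 sign. All 19 measured members had a positive difference, against 59.1% of all named genes. The differences lay between 0.07 and 0.68 with a median of 0.28, yet none passed the test. Wars1 had the largest at 0.68 (adjusted p = 0.248) and Eprs1 the next at 0.54 (adjusted p = 0.197). Their medians within pairs were 0.32, 0.01 and 0.41, so that number 2 was close to 0. Among 20 endoplasmic reticulum chaperones and genes of the unfolded protein response, 1 rose. Atf6, a sensor of unfolded protein in the endoplasmic reticulum, had 10.49, 10.91 and 10.73 at 10 µM, against 10.05, 10.21 and 10.03 at 5 µM, and rose by 0.61 ± 0.11 (adjusted p = 0.0082). The chaperone Hspa5 (BiP), the usual marker of that response, differed by 0.19 (adjusted p = 0.981), and Xbp1, the factor of its other branch, by 0.01 (adjusted p = 0.998). The Atf6 call was lost without array 2 or 3 at 10 µM or array 1 at 5 µM. None of 14 heat shock genes passed, and their median was -0.02. Hspb1 had the largest difference of the list, 0.76 (adjusted p = 0.533).

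**Figure D2:**
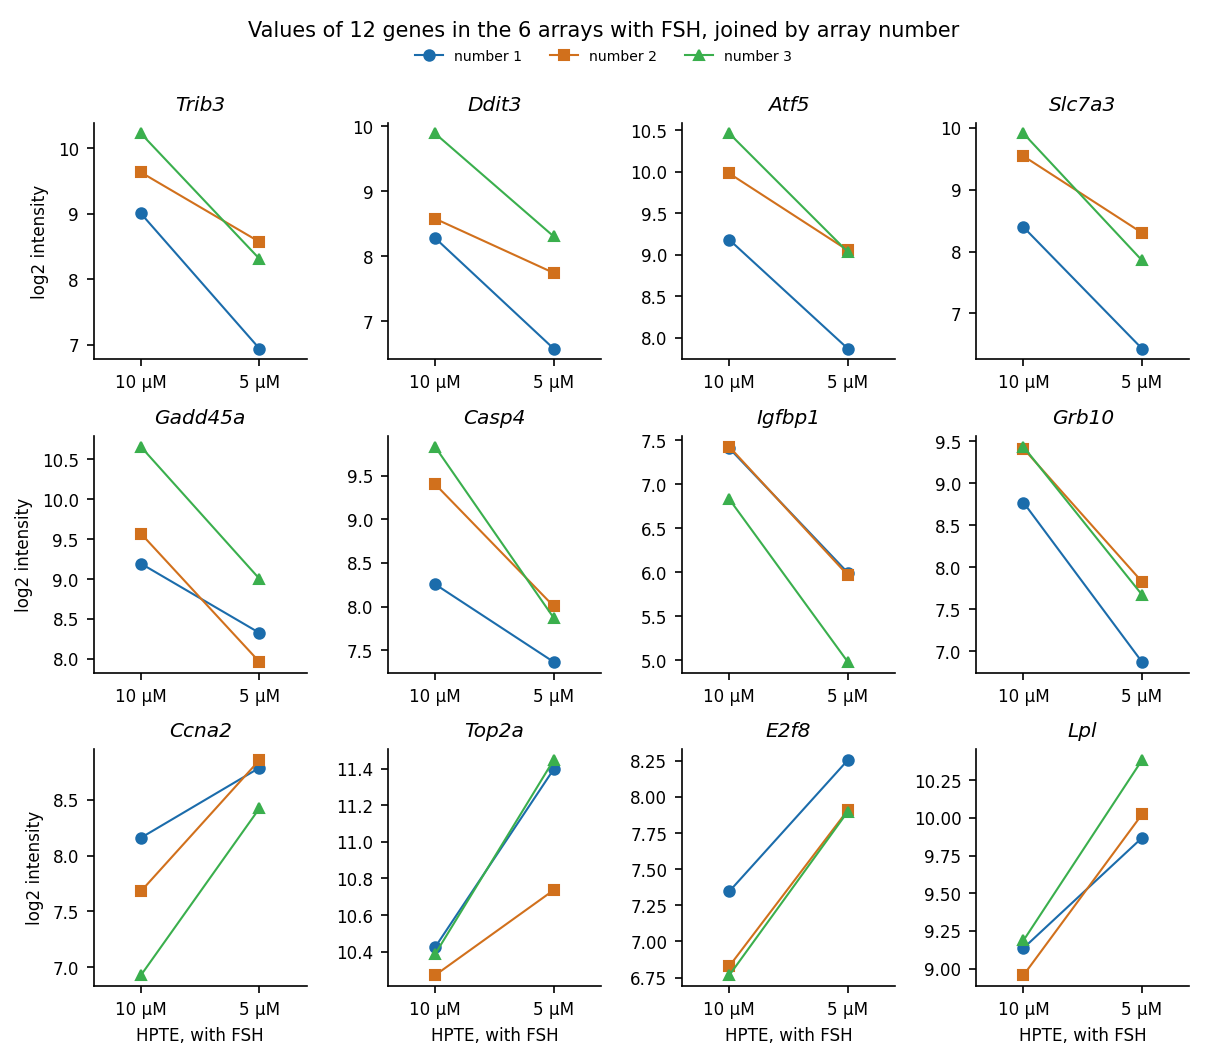
Log2 intensity of 12 genes in the 3 arrays at 10 µM HPTE with FSH (left of each panel) and the 3 arrays at 5 µM with FSH (right), joined by array number. The 8 genes of the upper rows are higher at 10 µM in 3 of 3 pairs, and Ccna2, Top2a, E2f8 and Lpl are lower at 10 µM in 3 of 3 pairs.

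Of 15 measured p53 targets and apoptosis genes, Gadd45a and Casp4 rose and the other 13 did not pass. Gadd45a, a growth arrest gene induced by DNA damage and other stress, had 9.19, 9.57 and 10.66 at 10 µM, against 8.33, 7.96 and 9.00 at 5 µM. The arrays did not overlap, though array 1 at 10 µM was close to array 3 at 5 µM. Gadd45a rose by 1.38 ± 0.27 (adjusted p = 0.0125). Casp4, an inflammatory caspase, had 8.26, 9.40 and 9.83 at 10 µM, against 7.37, 8.01 and 7.87 at 5 µM. It rose by 1.41 ± 0.23 (2.67-fold, adjusted p = 0.00199) and kept its call without any 1 of the 6 arrays, but not without number 2 or number 3 in all groups. Gadd45a lost its call without array 2 or 3 at 10 µM or array 1 or 2 at 5 µM, with differences of 1.17 to 1.69 over the 6 omissions. Of 23 measured Nrf2 targets, the antioxidant genes, only Abcc4 passed. Abcc4, an exporter of drugs and cyclic nucleotides, had 9.26, 9.52 and 9.14 at 10 µM, against 8.58, 8.19 and 8.00 at 5 µM, a rise of 1.05 ± 0.23 (adjusted p = 0.0304). Its call was lost without any 1 of the arrays other than array 1 at 10 µM. Hmox1, Nqo1 and Srxn1, the usual markers of this response, differed by 0.63, 0.50 and 0.55 and did not pass (adjusted p = 0.836, 0.36 and 0.865).

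A group of mitosis genes fell at 10 µM. Of 27 measured members, 6 fell, none rose and 21 did not pass. All 27 differences were below 0, with a median of -0.63, and 21 were negative in 3 of 3 pairs. The share of all genes negative in 3 of 3 pairs is not given here. Array data of a whole culture do not tell fewer cells of a type from less RNA per cell, here fewer dividing cells from less of these RNAs in each. Ccna2, cyclin A2, had 8.16, 7.68 and 6.93 at 10 µM, against 8.79, 8.86 and 8.42 at 5 µM. The groups did not overlap, and array 3 at 10 µM was the lowest. Ccna2 fell by 1.10 on the log2 scale (SE 0.23, adjusted p = 0.0158). Top2a, the topoisomerase that untangles chromosomes, had 10.42, 10.27 and 10.39 at 10 µM, against 11.40, 10.74 and 11.45 at 5 µM, without overlap. It fell by 0.83 (SE 0.19, adjusted p = 0.0353), and its other probe set by 0.94 (adjusted p = 0.0136). Cdkn3, a phosphatase of cyclin-dependent kinases, had 8.41, 8.31 and 8.27 at 10 µM, against 9.14, 9.31 and 8.91 at 5 µM. The 10 µM arrays lay closely together and all below the 5 µM arrays, a fall of 0.79 (SE 0.16, adjusted p = 0.0158).

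The other 3 members called were Ect2, Nuf2 and Birc5. Ect2, which drives cytokinesis, fell by 0.79 (SE 0.14, adjusted p = 0.00605). Nuf2, a kinetochore subunit, fell by 0.74 (SE 0.13, adjusted p = 0.00327), and Birc5 (survivin), which acts at the centromere, fell by 0.63 (SE 0.15, adjusted p = 0.0466). Mki67, the marker of dividing cells, had 8.93, 7.92 and 7.69 at 10 µM, against 9.26, 9.44 and 8.53 at 5 µM. Its groups overlapped and its difference of -0.89 ± 0.26 did not pass (adjusted p = 0.172). Without 1 of the 6 arrays the count of members called fell to between 1 and 3, with 1 left without array 3 at 10 µM. Ccna2 lost its call without any 1 array but array 1 at 10 µM, Top2a without any but array 2 at 5 µM, and Birc5 without any 1 of the 6. Cdkn3 lost it without array 1 or 2 at 10 µM or array 2 or 3 at 5 µM, and Ect2 and Nuf2 only without array 3 at 10 µM. The count was 2 without the replicate block and 11 after quantile normalization.

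Further genes among the 15 largest falls lay outside the list. Pclaf, a partner of the replication clamp PCNA, had 9.20, 8.86 and 8.75 at 10 µM, against 10.26, 9.71 and 10.02 at 5 µM. E2f8, a repressor of the E2F family, had 7.35, 6.83 and 6.77 at 10 µM, against 8.25, 7.91 and 7.90 at 5 µM. Neither gene overlapped between the groups, and both kept their calls without any 1 of the arrays, but not without number 3 in all groups. Pclaf fell by 1.06 (SE 0.16) and E2f8 by 1.04 (SE 0.15), both with an adjusted p of 0.000608. Plk4, the kinase of centriole duplication, fell by 0.79 (adjusted p = 0.00427), Kif15, a spindle motor, by 0.78 (adjusted p = 0.0311), and Cdca3, which is involved in entry into mitosis, by 0.77 (adjusted p = 0.0259). All 3 lost their calls without array 1 at 5 µM, and Kif15 and Cdca3 also without array 2 or 3 at either dose, Kif15 further without array 1 at 10 µM. Of 24 measured genes of DNA replication, 1 fell and 23 did not pass; 23 differences were below 0, and the median was -0.42. The member called was Cdc45, part of the replicative helicase, which fell by 0.64 (SE 0.13, adjusted p = 0.0128) and lost its call without array 1 or 3 at either dose. Pcna, the clamp itself, differed by -0.28 (adjusted p = 0.669). None of 15 G1 cyclins and growth arrest genes passed, with a median of 0.06.

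The promoters of Top2a and Cdkn3 are shown because both genes fell and both windows hold the elements typical of mitosis genes. Capitals mark CCAAT and TTTGAA, the core of the cell cycle homology region, on either strand. The window of Top2a is chr10:84473044-84473343 on the minus strand and that of Cdkn3 is chr15:22502136-22502435 on the plus strand (RefSeq, GRCr8).
Top2a: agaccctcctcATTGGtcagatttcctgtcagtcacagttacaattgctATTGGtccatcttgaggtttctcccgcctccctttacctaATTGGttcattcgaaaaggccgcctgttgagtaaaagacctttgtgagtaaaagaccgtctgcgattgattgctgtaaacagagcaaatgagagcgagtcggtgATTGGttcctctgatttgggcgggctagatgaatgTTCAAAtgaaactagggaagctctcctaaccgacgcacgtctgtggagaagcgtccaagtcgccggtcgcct
Cdkn3: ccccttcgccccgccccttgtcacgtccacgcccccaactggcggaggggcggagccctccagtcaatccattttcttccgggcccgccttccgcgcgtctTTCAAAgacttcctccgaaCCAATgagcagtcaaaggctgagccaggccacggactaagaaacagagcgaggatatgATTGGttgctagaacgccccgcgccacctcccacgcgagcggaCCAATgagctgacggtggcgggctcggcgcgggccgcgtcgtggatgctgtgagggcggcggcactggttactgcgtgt
Top2a has 4 CCAAT boxes and 1 TTTGAA, which lies from -22 to -17 relative to its start. Cdkn3 has 3 CCAAT boxes and 1 TTTGAA, which lies from -149 to -144, further from the start than its CCAAT boxes. In the whole list the homology region motif, TTTGAA, was present in 17 of 24 windows of mitosis genes (70.8%), against 18.1% of all 27457 windows, and CCAAT in 19 of 24 (79.2%), against 37.7%. The table held no window for Ccna2. The motifs do not overlap each other in these windows, and the shares describe the list whether or not its members were called.

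Among the genes of steroid synthesis and granulosa differentiation, Hsd11b1 rose and Prkar2b fell. Of 17 measured genes of steroid synthesis, 1 passed, Hsd11b1, the enzyme that turns inactive into active glucocorticoid. It had 9.17, 8.14 and 8.36 at 10 µM, against 7.84, 7.43 and 7.15 at 5 µM, without overlap, and rose by 1.08 ± 0.22 (adjusted p = 0.014). The call was lost without array 1 or 3 of either dose. Star, which carries cholesterol into mitochondria, had 11.22, 10.79 and 10.51 at 10 µM, against 10.56, 9.55 and 8.92 at 5 µM. Its lowest 10 µM array was just under its highest 5 µM array, and the difference of 1.16 ± 0.30 did not pass (adjusted p = 0.0848). The other probe set of Star disagreed in its call, since it was past the threshold with a difference of 1.71 (adjusted p = 0.012). Of 26 measured genes of granulosa differentiation, 1 fell and none rose, with a median of -0.29. Prkar2b, a regulatory subunit of protein kinase A, had 12.12, 11.98 and 12.16 at 10 µM, against 12.73, 12.39 and 12.89 at 5 µM, and fell by 0.58 (SE 0.11, adjusted p = 0.0113). The call was lost without array 2 or 3 at 10 µM or array 1 or 3 at 5 µM, at -0.51 without array 1 at 5 µM.

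Lipoprotein lipase and its inhibitor moved apart. Lpl, which releases fatty acids from lipoproteins, had 9.14, 8.96 and 9.19 at 10 µM, against 9.87, 10.02 and 10.38 at 5 µM. Angptl4, which inactivates that enzyme, had 11.37, 10.68 and 10.42 at 10 µM, against 10.03, 10.05 and 9.04 at 5 µM. Neither gene overlapped between the groups. Lpl fell by 1.00 (SE 0.21, adjusted p = 0.0177) and Angptl4 rose by 1.12 ± 0.21 (adjusted p = 0.00891). They were the only 2 of 21 measured fatty acid and lipid droplet genes to pass, and no gene of cholesterol synthesis and uptake passed (19 measured, median -0.16). Without array 3 at 10 µM, array 1 at 5 µM or array 3 at 5 µM both calls were lost, and that of Lpl also without array 2 at either dose. Aldh1a1, which makes retinoic acid, had 11.46, 11.70 and 10.63 at 10 µM, against 12.20, 12.29 and 11.69 at 5 µM. The groups overlapped by 1 array, and within pairs Aldh1a1 fell by 0.80 (SE 0.16, adjusted p = 0.014), the 1 call among 12 measured retinoid genes. Of 14 measured genes of the aryl hydrocarbon receptor and of xenobiotics, 1 passed: Cyp1b1, a target of that receptor, rose by 0.87 ± 0.17 (adjusted p = 0.0109), while the classical target Cyp1a1 differed by 0.19 (adjusted p = 0.989). Of 7 measured genes of metal handling, 1 passed: Lcn2, a secreted protein that binds iron carriers, rose by 1.17 ± 0.22 (adjusted p = 0.00891), while Mt1, a metallothionein, differed by 0.31 (adjusted p = 0.957). The calls of Aldh1a1, Cyp1b1 and Lcn2 were lost without array 3 at 10 µM or array 1 at 5 µM, that of Cyp1b1 also without array 2 at either dose, and that of Aldh1a1 without any 1 array but array 2 at 10 µM.

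**Figure D3:**
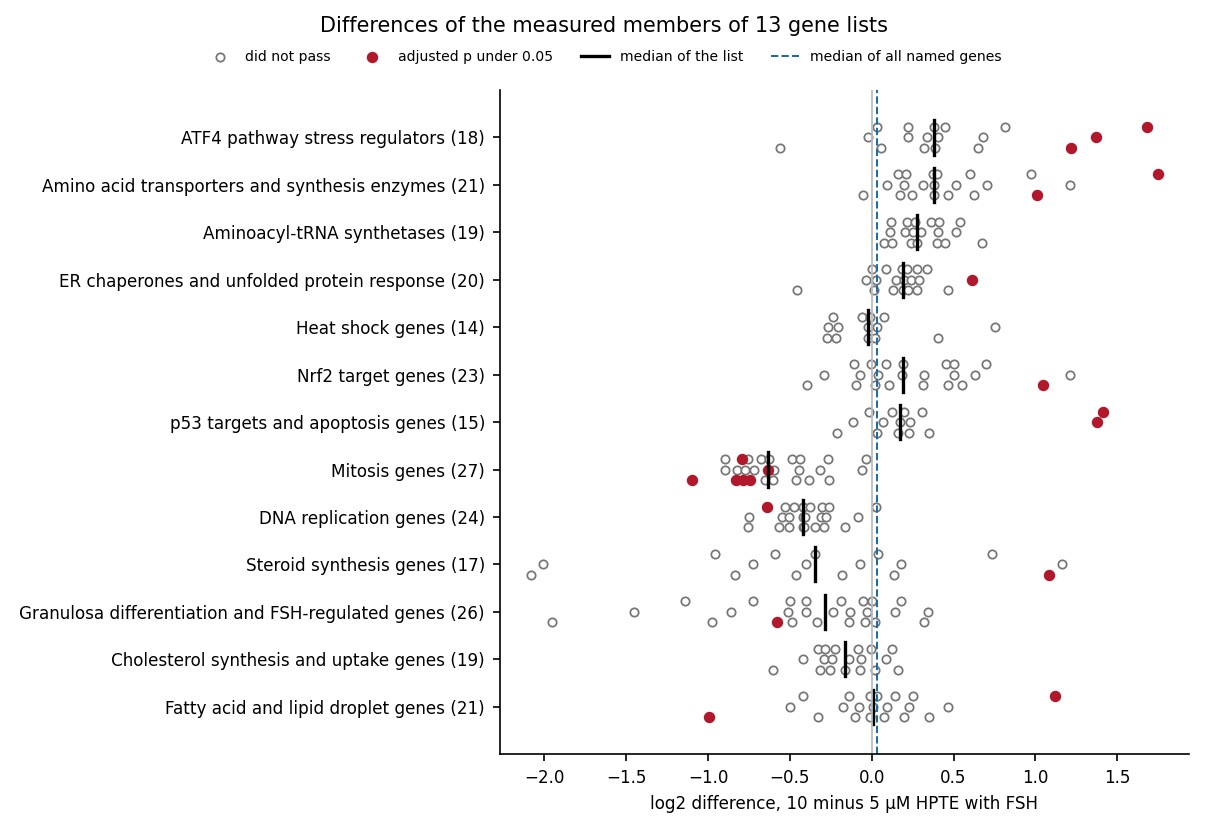
Log2 difference, 10 minus 5 µM HPTE with FSH, of each measured member of 13 gene lists, with the number measured in brackets. Filled points passed an adjusted p of 0.05, black bars are list medians and the dashed line is the median of all named genes (0.03). The mitosis genes lie wholly below 0, with a median of -0.63, and the aminoacyl-tRNA synthetases wholly above it.

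The remaining large rises were spread over several roles. Olr1, a receptor for oxidised lipoprotein, had 6.96, 6.88 and 6.64 at 10 µM, against 5.19, 5.41 and 5.66 at 5 µM, with a wide gap between the groups. Akr1c15, an aldo-keto reductase, had 7.99, 8.34 and 8.53 at 10 µM, against 7.00, 7.11 and 6.86 at 5 µM. Both were called without any 1 of the arrays, but not without number 3 in all groups, with rises of 1.41 ± 0.19 (adjusted p = 0.000443) and 1.29 ± 0.18 (adjusted p = 0.000434). Grb10, an adaptor that restrains insulin and IGF receptors, had 8.77, 9.41 and 9.43 at 10 µM, against 6.87, 7.83 and 7.67 at 5 µM. Igfbp1, a secreted binder of IGFs, had 7.41, 7.42 and 6.83 at 10 µM, against 5.99, 5.97 and 4.98 at 5 µM. The arrays of neither overlapped, and Grb10 rose by 1.75 ± 0.34 (adjusted p = 0.0116), and Igfbp1 by 1.57 ± 0.28 (adjusted p = 0.00529). Serping1, the C1 inhibitor of complement, rose by 1.38 ± 0.24 (adjusted p = 0.00327), although its pairs ranged widely, at 2.23, 0.43 and 1.47. Ret, a receptor tyrosine kinase, Lgals3, a galectin, Grem1, an antagonist of BMPs, and Kcnk6, a potassium channel, rose by 1.30, 1.27, 1.27 and 1.23 (adjusted p = 0.0116, 0.012, 0.0241 and 0.00267). The arrays of Grem1 overlapped. Of these, Igfbp1 lost its call without array 3 at 5 µM, and Grb10, Serping1, Ret, Lgals3, Grem1 and Kcnk6 lost theirs without array 1 at 5 µM. Without array 3 at 10 µM, Grb10, Lgals3 and Grem1 lost theirs too, without array 2 at 10 µM Grb10 and Ret, without array 1 at 10 µM Ret and Grem1, and without array 2 or 3 at 5 µM Grem1. The weaker probe sets of Grb10, Ret and Kcnk6 did not pass.

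Of the other large falls, Cavin2, a coat protein of caveolae, had 10.18, 10.06 and 9.59 at 10 µM, against 11.08, 10.92 and 10.75 at 5 µM. Fhod3, a formin that assembles actin, had 9.02, 8.83 and 8.73 at 10 µM, against 9.71, 9.82 and 9.61 at 5 µM. In both genes the groups were clearly apart and the call held without any 1 of the arrays, but not without number 3 in all groups, with falls of 0.97 (SE 0.15, adjusted p = 0.000974) and 0.85 (SE 0.12, adjusted p = 0.000542). Fbln5, a protein of elastic fibres, fell by 1.03 (adjusted p = 0.012), and Gna14, a G protein subunit of the Gq class, by 0.95 (adjusted p = 0.0128). The arrays of Gna14 overlapped, its weaker probe set differed by 0.14 (adjusted p = 0.994), and it was not called without any 1 of the 10 µM arrays or without array 1 at 5 µM. Fbln5 lost its call without array 2 or 3 at 10 µM or array 1 or 3 at 5 µM. Neither the 29 genes of extracellular matrix nor the 18 contractile genes measured held a call, with medians of -0.04 and -0.13. The lists of inflammation (21), interferon response (19), proteasome (24), autophagy and lysosome (20), respiratory chain (21), hypoxia and glycolysis (20), ovulatory response (18) and aldo-keto reductases with glutathione transferases (22) had none either, with medians between -0.03 and 0.16. Akr1c15, which was called, is an aldo-keto reductase outside the last of these lists.

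Markers of other cells were checked beside these groups. Of 5 measured oocyte markers, all with a positive difference and 3 above the median probe set, Gdf9, a growth factor of the oocyte, passed with 6.85, 6.51 and 7.37 at 10 µM, against 5.63, 5.43 and 6.55 at 5 µM, which overlap, and a rise of 1.04 ± 0.24 (adjusted p = 0.0445). The mean level of the list was 6.28 to 6.73 at 10 µM and 5.52 to 6.37 at 5 µM, and the call was lost without any 1 of the 6 arrays. No marker of theca and stroma (9 measured), leukocytes (12), endothelium (8) or surface epithelium (8) passed, and their mean levels overlapped between the groups except those of the surface epithelium, at 5.67 to 6.11 at 10 µM and 5.39 to 5.62 at 5 µM. All 8 markers of the surface epithelium had a positive difference, and 2 of them lay above the median probe set. The part of oocytes and of surface epithelium in the results above was not tested. Of the granulosa markers none passed, and their mean level was 9.15 to 9.62 at 10 µM and 9.19 to 10.13 at 5 µM.

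Over the dose series with FSH, the stress genes Trib3 and Slc7a3 and the cell cycle gene Ccna2 had different courses. Trib3 averaged 6.82 at 0 µM, 6.68 at 1 µM, 7.94 at 5 µM and 9.62 at 10 µM, so most of its range lay above 1 µM. Slc7a3 averaged 5.42, 5.47, 7.53 and 9.28 at the same doses. It is among the 506 genes lowered by FSH at 0 µM, at a log2 difference of -1.76 (adjusted p = 0.000175, limma). Without stimulus it averaged 7.18 at 0 µM, 8.06 at 5 µM and 9.67 at 10 µM. The part of a loss of that lowering in its course with FSH was not tested. Ccna2 averaged 8.60, 8.87, 8.69 and 7.59, level until 5 µM and lower only at 10 µM. For 5 against 0 µM with FSH, which includes the number 2 array that went against its label, Slc7a3 differed by 2.11 (adjusted p = 2.15e-05) and Trib3 by 1.12 (adjusted p = 0.0206), while Ccna2 differed by 0.09 (adjusted p = 0.865). Of the mitosis list, 2 members were higher and 1 lower at 5 than at 0 µM, with a median of -0.14. The 5 µM arrays enter both steps, so an array that stands high or low there moves the steps in opposite directions.

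**Figure D4:**
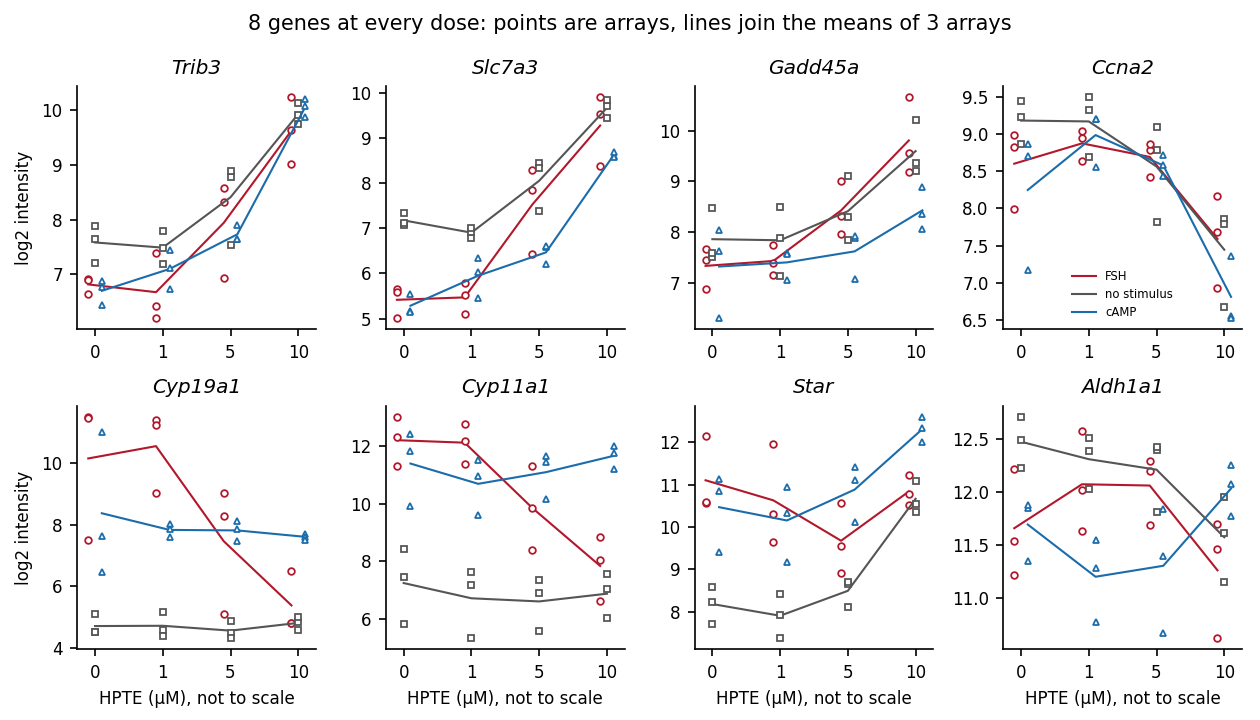
Log2 intensity of 8 genes at 0, 1, 5 and 10 µM HPTE with FSH (circles), without stimulus (squares) and with cAMP (triangles). Points are arrays and lines join the means of 3 arrays. Trib3 and Slc7a3 stand highest at 10 µM with each stimulus, Ccna2 lowest, and Cyp19a1 and Cyp11a1 with FSH are lower at 5 and 10 µM than at 0 and 1 µM.

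The same step of dose was tested in cells without FSH, which are other arrays, although numbers and the estimate of spread are shared. Without stimulus 148 probe sets (0.477%) differed between 10 and 5 µM, and with cAMP 863 (2.78%). Of the 150 called with FSH, all had the same sign without stimulus and 136 had it with cAMP. The share of all probe sets with the same sign is not given here, so these counts stand without a background. Called in the same direction were 88 without stimulus, which is 58.7% of the FSH calls and 59.5% of the calls without stimulus, and 76 with cAMP, 50.7% of the FSH calls and 8.81% of the cAMP calls. The opposite direction was called for 3, with cAMP. A test of the difference between the effects with FSH and without stimulus called no probe set (0%) in limma, with 286 at an unadjusted p under 0.05. The step of dose was therefore not shown to differ in any gene between cells with FSH and cells without it, which does not show that it was equal.

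By group, the ATF4 list had a median difference of 0.38 with FSH, 0.45 without stimulus and 0.68 with cAMP, with 3, 3 and 9 of 18 members called higher. The mitosis list had medians of -0.63 with FSH, -0.73 without stimulus and -1.18 with cAMP, with 6, 10 and 25 of 27 called lower. Trib3 differed by 1.68 with FSH, 1.52 without stimulus and 2.31 with cAMP, and Ccna2 by -1.10, -1.12 and -1.76. Star, which did not pass with FSH, differed by 2.17 without stimulus (adjusted p = 0.00078) and by 1.43 with cAMP (adjusted p = 0.00544). Of the large rises, Kcnk6, Olr1, Ret and Grem1 were called with FSH but neither without stimulus nor with cAMP; for none of them was the difference between stimuli called.

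**Figure D5:**
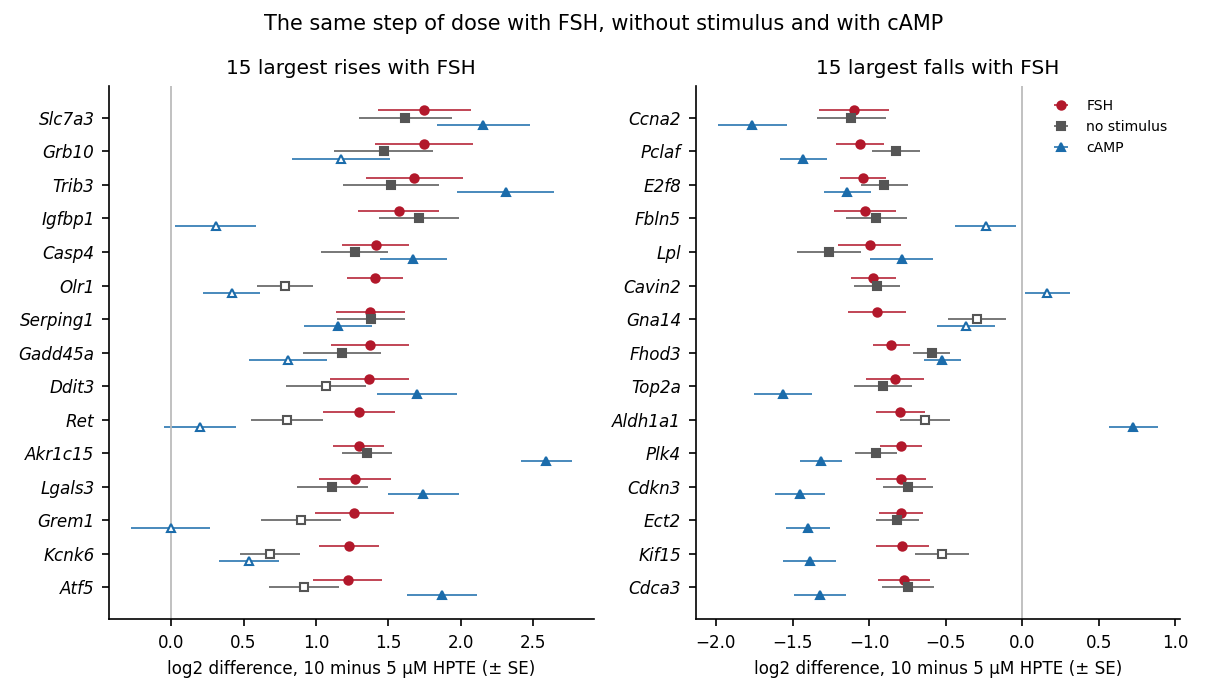
Log2 difference, 10 minus 5 µM HPTE, of the 15 largest rises (left) and the 15 largest falls (right) of the comparison with FSH, shown with FSH (circles), without stimulus (squares) and with cAMP (triangles), with the standard error of the fit. Filled symbols passed an adjusted p of 0.05. Aldh1a1 is below 0 with FSH (-0.80) and above 0 with cAMP (0.73).

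Between the effects with FSH and with cAMP, 22 probe sets (0.0709%) differed, 4 with a higher and 18 with a lower effect under FSH. Aldh1a1 fell by 0.80 with FSH and rose by 0.73 with cAMP, a difference of -1.52 (adjusted p = 0.0019). With cAMP its arrays stood at 12.25, 12.07 and 11.77 at 10 µM, against 11.84, 11.40 and 10.68 at 5 µM, and overlapped as they did with FSH. Akr1c15 rose with both, by 1.29 with FSH and 2.59 with cAMP. Cavin2 fell by 0.97 with FSH and differed by 0.16 with cAMP. In most of the others the effect lay in the cAMP arrays. Reg3b, a secreted lectin, had 5.21, 5.09 and 4.91 at 10 µM and 5.34, 5.00 and 5.17 at 5 µM with FSH, while with cAMP it had 8.03, 6.92 and 7.06 at 10 µM, against 5.55, 5.13 and 5.00 at 5 µM. Apoe, a lipoprotein component, and Pde4b, a phosphodiesterase that degrades cAMP, differed by 0.18 and -0.50 with FSH and by 2.29 and 1.27 with cAMP. Adam22, an adhesion protein without protease activity, differed by 0.11 with FSH and by -1.06 with cAMP. The count of 22 was 3 without the replicate block and 0 without number 3.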

How the data were processed

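RNA of each culture was hybridised to an Affymetrix Rat Genome 230 2.0 array. The deposited intensity values were made by the authors with RMA, per the submitters' processing notes, and ArrayAssist is named in the labels' design text. For software versions, the form of cAMP and a genome build, nothing is stated (not given in the sources used here). Their intensities are linear, and log2 was taken of them with no further scaling. Of 31099 probe sets, 57 controls were set aside. Of the others, 20826 had 1 symbol, 436 several and 9780 none in the platform annotation, and 20758 symbols were updated.

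limma 3.58.1 in R 4.3.3 fitted the 12 group means of all 36 arrays, with the array number of the titles as a block, leaving 22 residual degrees of freedom. Adjusted p-values are Benjamini-Hochberg over 31042 probe sets, two-sided, and an effect was called under 0.05. Errors after ± are standard errors of this fit. It was tested on simulated data. The block is part of the comparison because its arrays are matched by number. Deviations from the group means correlated at 0.308, 0.279 and 0.752 within numbers 1, 2 and 3, but at 0.443 between number 1 at 10 µM and number 2 at 5 µM.

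Genes are named by rule. Among called genes that moved alike in 3 pairs, these are the 15 that rose most and the 15 that fell most. For each difference between stimuli they are up to 5 genes called in each direction, whose pairs with FSH need not move alike. Members of the lists are named whether called or not, with preference for the largest differences. Members, lists and tests were chosen with earlier results of these data known. Of 634 list entries 574 were measured, and a highest-mean probe set stood for each gene. Promoter windows came from RefSeq GRCr8, searched on both strands. Alternatives left out the block or arrays, changed the scaling or kept only probe sets above the median level. The number of arrays limits the precision.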

Additional observations from a re-analysis of the deposited data

Results flagged for a closer look

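A test of the difference itself, the 10 against 5 µM effect with FSH minus that with cAMP, passed for 22 probe sets (limma, adjusted p under 0.05, n = 3 arrays in each of 4 groups). All differences below are on the log2 scale and were taken by the naming rule. Higher effects under FSH were found for Alpk3, a muscle protein kinase, at 1.32 (adjusted p = 0.0445), for Adam22 at 1.17 (adjusted p = 0.0327) and for Rnf144b, a ubiquitin ligase, at 0.96 (adjusted p = 0.00292). Alpk3 rose by 0.92 with FSH and differed by -0.40 with cAMP, while Rnf144b rose by 0.53 with FSH and fell by 0.43 with cAMP.

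Lower effects under FSH were found for Reg3b at -2.21 (adjusted p = 9.45e-06) and Reg3g at -1.99 (adjusted p = 0.000856), which encode related secreted lectins. Apoe stood at -2.11 (adjusted p = 0.0445), Cldn11, a tight junction protein, at -1.85 (adjusted p = 0.0263) and Pde4b at -1.77 (adjusted p = 0.00292). In these 5 genes the effect with FSH lay between -0.50 and 0.41 and was not called, and with cAMP each rose by at least 1.27. Aldh1a1 at -1.52, Akr1c15 at -1.30 (adjusted p = 0.0295) and Cavin2 at -1.14 (adjusted p = 0.0185) are among the genes that passed with FSH. The number 2 arrays at 0 µM that went against their labels enter this test only through the estimate of spread.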

How the results depend on the processing

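None of the gene differences recomputed under the alternatives changed sign, and the genes named only as examples were not recomputed. The 150 calls for 10 against 5 µM with FSH became 32 (22 higher, 10 lower) without the replicate block, 13 in a fit of the 12 FSH arrays, 35 in a fit of the 6 compared arrays, 227 without number 2 at 0 µM with FSH and with cAMP, and 2 to 121 when arrays or numbers were left out. In the fit of the 18 arrays at 5 and 10 µM, chosen after seeing the data, they were 237. The split was 97 higher and 90 lower after quantile normalization, 79 and 57 with centred arrays, and 99 and 78 above the median level. The 148 calls without stimulus became 29 without the paired block, 231 without number 2 at 0 µM, 252 with 18 arrays, and 2 to 97 when arrays were left out. After quantile normalization 92 were higher and 118 lower, and with centred arrays 65 and 82, against 78 and 70 as reported. The 863 calls with cAMP (452 higher, 411 lower) became 218, 1455 with 18 arrays, and 104 to 688, with 327 higher and 462 lower after centring and 227 and 315 without number 1. For FSH minus no stimulus the 0 calls became 0 to 2. The 22 calls for FSH minus cAMP became 3 without the block, 58 without number 2 at 0 µM, 79 with 18 arrays, and 0 to 33. Of the 30 genes named by size, 11 kept their call without the replicate block, 5 in the fit of the 12 FSH arrays, 10 to 23 without 1 of the 6 arrays, and 11, 14 and 0 without number 1, 2 or 3 in all groups. The cause of these shifts was not tested. Each count rests on 3 arrays a group.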

Other observations

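Further genes called for 10 against 5 µM with FSH lay outside the naming rule, and those given here were chosen after their values were seen. Slc39a8, a transporter of zinc and manganese, had 9.03, 8.51 and 8.81 at 10 µM, against 7.76, 7.66 and 7.76 at 5 µM. Dact1, a modulator of Wnt signalling, had 7.43, 7.29 and 7.29 at 10 µM, against 5.99, 6.23 and 6.56 at 5 µM. Neither gene overlapped between the groups, and they rose by 1.05 ± 0.15 (adjusted p = 0.000608) and 1.07 ± 0.15 (adjusted p = 0.000545, limma). Serpinb1a, an inhibitor of neutrophil proteases, rose by 1.18 ± 0.16 (adjusted p = 0.000443), and Aldh1l2, a mitochondrial enzyme of folate metabolism, by 1.16 ± 0.18 (adjusted p = 0.00107).

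The monocarboxylate transporters Slc16a7 and Slc16a1, which carry lactate and pyruvate, moved apart. Slc16a7 had 8.72, 8.25 and 7.81 at 10 µM, against 7.56, 7.44 and 6.93 at 5 µM, and rose by 0.95 ± 0.19 (adjusted p = 0.0125). Slc16a1 had 10.16, 10.36 and 10.62 at 10 µM, against 10.84, 10.67 and 11.38 at 5 µM, and fell by 0.58 (SE 0.11, adjusted p = 0.0109). The arrays of neither gene overlapped. Rragd, a GTPase of mTORC1 signalling at the lysosome, rose by 0.86 ± 0.17 (adjusted p = 0.0125), Ctns, the cystine exporter of lysosomes, by 0.60 ± 0.14 (adjusted p = 0.0367), and Atp6v1c1, a subunit of the proton pump, by 0.54 ± 0.12 (adjusted p = 0.0336). The list of autophagy and lysosome genes held no call among 20 measured. Melk, Smc2, Depdc1b, Shcbp1 and Fancd2 fell by 0.67, 0.59, 0.75, 0.74 and 0.74 (adjusted p = 0.0176, 0.0311, 0.0136, 0.0317 and 0.0453).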
